A study of Mus musculus with 2 samples.

Results

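The open chromatin of 10 myeloid genes was described in the lung of newborn mice, out of 21938 protein-coding genes of the annotation. The genes were chosen by name. They were the transcription factor genes Spi1 and Irf8, the receptor genes Csf1r and Marco, the signalling adaptor genes Fcer1g and Tyrobp, the lysosomal genes Cd68 and Laptm5, and the leukocyte genes Coro1a and Ptprc. All 10 matched a GENCODE gene model. For each gene, DNase peaks within 500 bp of any of its transcription start sites and within 50 kb of its body were collected.

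DNase I cuts DNA where nucleosomes are displaced, and the resulting peaks fall on promoters, enhancers and insulators without telling enhancers from insulators. The series held a single group, whole lung on the day of birth (age 0 days) from mice of strain B6NCrl, with 2 biological replicates and no control or treated group. The labels list both biosamples under the same donor entry, give the sex as not collected and do not say whether different animals or pools were used. No test between groups was therefore possible, and the values below describe 2 libraries whose difference may be technical. In whole tissue, fewer cells of a type and less accessibility per cell cannot be told apart.

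Myeloid cells of the lung include macrophages, monocytes and granulocytes. Their genes are known to depend on PU.1, the ETS-family factor encoded by Spi1, which binds GGAA-containing sites at promoters and enhancers together with C/EBP, RUNX and IRF factors. Promoters of such genes often hold few CpG dinucleotides and no strong TATA box. Csf1r, the receptor for the cytokines Csf1 and Il34, is needed for the survival of most macrophages. Marco is a scavenger receptor of alveolar macrophages. Ptprc (CD45), Coro1a and Laptm5 are also expressed in lymphocytes, so their sites are not specific to myeloid cells. The sites of the other genes may not be specific either, which was not examined.

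The authors gave every 150 bp peak a score, a whole number from 2 to 150 in replicate 1 and from 1 to 148 in replicate 2. The meaning of the score is not given in the sources used here. Its scale may differ between the lists. Peaks of the replicates that overlapped by at least 1 bp were merged into a shared site. Scores are given as replicate 1 and then replicate 2. Positions in kb are those of the centre of a site, counted from the gene's 5′ end in the direction of transcription. A distal site had its centre more than 1000 bp from every annotated start site. All coordinates are in mm10 (GRCm38).

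The sequences that follow are those of shared sites on which the results below turn, on the plus strand, from GRCm38. The first 5 are the distal sites near these genes that held the PU.1 motif searched here, GAGGAAGT or its reverse complement, and the capitals mark it.

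Tyrobp, 19.2 kb upstream, intergenic, chr7:30394476-30394625: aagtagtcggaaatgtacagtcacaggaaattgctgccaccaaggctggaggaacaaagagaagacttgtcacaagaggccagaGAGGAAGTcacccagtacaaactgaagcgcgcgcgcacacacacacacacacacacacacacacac

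Irf8, 27.1 kb from the 5′ end and downstream of the gene, chr8:120763396-120763565: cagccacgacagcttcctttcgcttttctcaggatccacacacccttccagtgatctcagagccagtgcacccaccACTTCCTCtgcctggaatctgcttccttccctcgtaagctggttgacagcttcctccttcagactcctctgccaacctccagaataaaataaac

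Ptprc, 50.2 kb into the gene, chr1:138125396-138125545: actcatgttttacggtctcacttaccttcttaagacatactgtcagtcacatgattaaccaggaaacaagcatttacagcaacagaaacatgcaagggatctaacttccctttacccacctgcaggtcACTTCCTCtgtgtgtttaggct

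Marco, intron 12, 23.9 kb into the gene, chr1:120481056-120481265: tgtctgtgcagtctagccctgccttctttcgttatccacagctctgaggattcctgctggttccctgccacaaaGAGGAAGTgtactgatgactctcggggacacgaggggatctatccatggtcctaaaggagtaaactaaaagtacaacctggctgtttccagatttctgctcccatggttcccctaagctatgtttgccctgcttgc

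Marco, 37.5 kb from the 5′ end and downstream of the gene, chr1:120467416-120467625: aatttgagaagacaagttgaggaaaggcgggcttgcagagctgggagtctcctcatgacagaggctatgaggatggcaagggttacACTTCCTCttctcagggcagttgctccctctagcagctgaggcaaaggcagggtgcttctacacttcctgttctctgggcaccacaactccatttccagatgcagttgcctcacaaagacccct

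A further site with the motif lay at an internal start site of Coro1a, 5.3 kb into the gene, and the capitals mark it in the same way.

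Coro1a, chr7:126702456-126702605: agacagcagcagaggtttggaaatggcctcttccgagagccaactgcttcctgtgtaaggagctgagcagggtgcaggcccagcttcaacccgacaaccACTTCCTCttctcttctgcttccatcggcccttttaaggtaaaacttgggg

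The promoters of Irf8 and Cd68 carried the highest promoter scores of the 10 genes. The Irf8 sequence is the part of its site that lies upstream of the start site, and the capitals mark CCAAT or its reverse complement.

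Irf8 promoter, chr8:120736216-120736357: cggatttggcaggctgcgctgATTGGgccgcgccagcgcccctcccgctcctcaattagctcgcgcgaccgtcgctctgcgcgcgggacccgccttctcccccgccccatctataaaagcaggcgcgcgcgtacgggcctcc

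Cd68 promoter, chr11:69666176-69666345: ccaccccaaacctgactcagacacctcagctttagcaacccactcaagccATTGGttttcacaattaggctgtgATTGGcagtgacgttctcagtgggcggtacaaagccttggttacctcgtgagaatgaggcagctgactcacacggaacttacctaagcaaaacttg

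The strongest distal site of Fcer1g lay in its intron 1. Capitals mark the C/EBP motif, TTGCNNAA or its reverse complement.

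Fcer1g, intron 1, chr1:171233116-171233265: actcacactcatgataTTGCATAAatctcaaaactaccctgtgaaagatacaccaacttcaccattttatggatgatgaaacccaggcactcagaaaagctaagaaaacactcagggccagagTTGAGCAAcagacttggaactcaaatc

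Of the 10 genes, 6 had a shared promoter peak (Irf8, Cd68, Coro1a, Laptm5, Tyrobp and Ptprc), 3 had one in replicate 1 only (Spi1, Csf1r and Fcer1g), and Marco had none. Over all protein-coding genes, 68.5% had a shared promoter peak. In replicate 1, 9 of the 10 genes had a promoter peak, against 72.3% of all genes. In replicate 2 it was 6 of 10, against 69.2%. Most of these promoters held few CpG dinucleotides, with a median of 13.5 (range 6 to 69) within 500 bp of the 5′ end, against 41 over all genes. All of the genes but Irf8, 9 in number, fell in CpG deciles 2 to 4. There, 40.7% of all genes (2680 of 6581) had a shared promoter peak, and 5 of the 9 myeloid genes did.

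**Figure D1:**
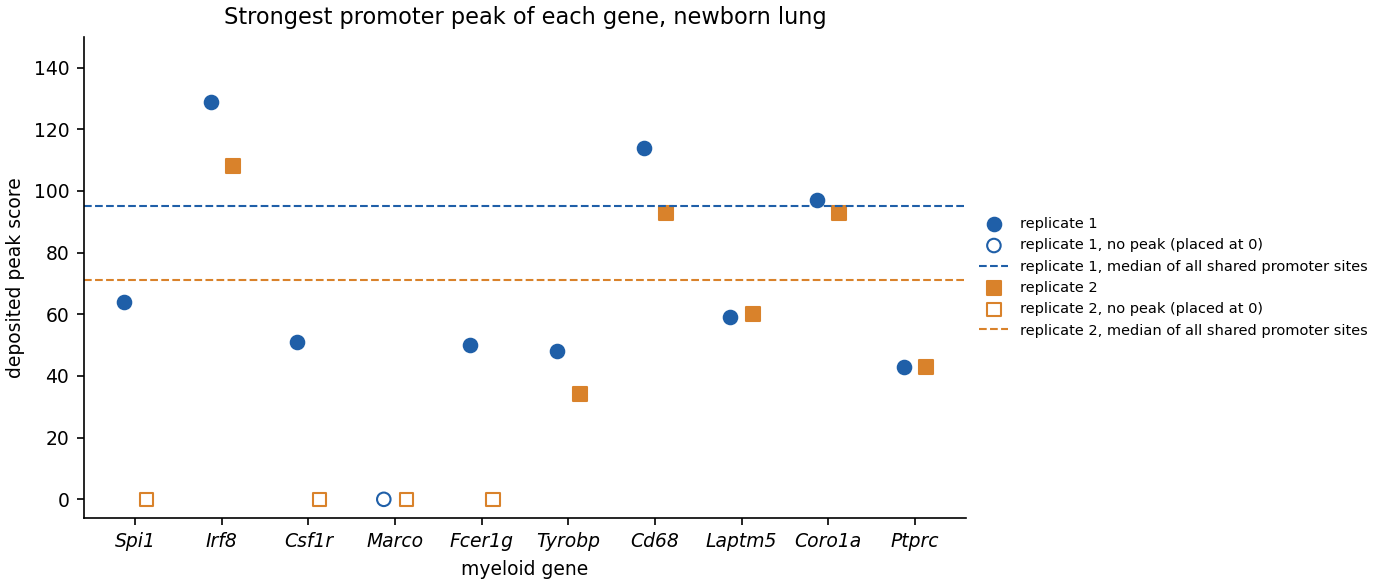
Deposited score of the strongest promoter peak (y axis, no unit) of each of the 10 myeloid genes (x axis) in replicate 1 (circles) and replicate 2 (squares). Open symbols placed at 0 stand for no listed peak, and dashed lines are the medians of all 29989 shared promoter sites, 95 and 71. Irf8, Cd68 and Coro1a lay above the line of each replicate, and the other listed peaks lay below the line of theirs.

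Of the transcription factor genes, Irf8 had the highest promoter score of the whole set. Irf8 encodes a factor of monocyte and dendritic cell development that works as a partner of PU.1. Its promoter peak scored 129 in replicate 1 and 108 in replicate 2, at percentiles 83.2 and 80.9 of all shared promoter sites. Irf8 had the only CpG-rich promoter, with 69 CpG dinucleotides. Genes of its CpG decile had a shared promoter peak in 96.4% of cases. Shared peaks beside it scored 82 and 54 at 0.4 kb upstream and 73 and 55 at 0.3 kb downstream. Another lay at an annotated internal start site at 15.8 kb and scored 101 and 70.

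Spi1 differed from Irf8 in having no peak within 500 bp of its 5′ end in either replicate. Its only promoter peak scored 64 in replicate 1 and was absent in replicate 2. It lay at a start site 14.3 kb into the gene model. The longest coding transcript of Spi1 starts between the sites at 6.9 and 15.9 kb, so the 5′ end used here is not its start. A shared site lay 0.7 kb downstream of the 5′ end, just outside the 500 bp window, and scored 94 and 69. It makes Spi1 the 7th gene with a shared promoter peak when the window is widened to 1000 bp. This holds for the 5′ end of the gene model and not for the start of the longest coding transcript. Upstream, peaks at 1.1, 3.7 and 4.0 kb were listed in replicate 1 only, with scores of 49, 63 and 55. The shared site at 0.7 kb also lies upstream of the start site that is 14.3 kb into the gene model. Spi1 is known to have an upstream enhancer, and which site here matches it was not tested. Within Slc39a13, sites lay at 12.0 kb (136 and 116), 12.9 kb (77 and 54), 13.4 kb (57, replicate 1 only) and 16.7 kb (61 and 46) upstream. These 4 were within 1000 bp of a Slc39a13 start site, so that promoter and enhancer cannot be told apart by position, and they were not counted as distal. A further site, 20.4 kb upstream where Slc39a13 and Psmc3 overlap, was distal and had a score of 60 in replicate 1 only.

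The receptor genes had a promoter peak of low score or none. Csf1r had a promoter peak in replicate 1 only, with a score of 51, at a start site 5.3 kb inside the longest gene model. Csf1r is known for separate start sites upstream and further in, the latter being used in macrophages, and no peak lay at the far 5′ end. Marco was the only gene with no promoter peak in either replicate, and its promoter had the fewest CpG dinucleotides, 6. Genes of the same CpG decile had a shared promoter peak in 23.4% of cases.

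The adaptor genes Fcer1g and Tyrobp encode small membrane proteins whose ITAM motifs pass signals from Fc and other receptors to the kinase Syk. Fcer1g had a promoter peak of 50 in replicate 1 and none in replicate 2. Its hotspot, the broader interval called by the authors, had a −log10 q-value of 1.40 there, the lowest of the promoter hotspots of these genes. Tyrobp had a shared promoter peak with scores of 48 and 34, at percentiles 10.7 and 11.4 of all shared promoter sites. Both lay well below the medians of all promoter sites.

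The lysosomal genes differed from each other. Cd68, a glycoprotein of macrophage lysosomes, had a promoter peak of 114 and 93, above the medians of all shared promoter sites. Its promoter held 12 CpG dinucleotides, and 42.3% of genes of that decile had a shared promoter peak. Laptm5, a lysosomal membrane protein of leukocytes, had 59 and 60. Its promoter peak thus lay below the median in both replicates.

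The leukocyte genes also differed. Coro1a, an actin-binding protein of leukocytes, had 5 promoter sites, all shared. The strongest (97 and 93) was at an internal start site 6.5 kb into the gene, while the site at the 5′ end scored 46 and 48. The sites between them, at 3.0, 3.5 and 5.3 kb, had scores of 83 and 70, 55 and 46, and 61 and 46. Ptprc, the phosphatase CD45, scored 43 in both replicates, at percentiles 7.39 and 22.0 of all shared promoter sites. In the hotspot lists, promoter hotspots of Cd68, Irf8 and Coro1a reached a −log10 q-value of 100, the highest listed value, in both replicates. The promoter hotspots of the other genes had between 1.40 and 5.15.

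Near the 10 genes lay 182 distal sites, of which 100 were shared, 75 were in replicate 1 only and 7 in replicate 2 only. Of all 226845 distal sites, 120858 (53.3%) were shared, 90192 were in replicate 1 only and 15795 in replicate 2 only. Each gene had between 4 (Tyrobp) and 18 (Irf8) shared distal sites, with a mean of 10. Over all protein-coding genes the mean was 9.35 and the median 8. Sites within 50 kb are not all tied to these genes: a start site of the myeloid gene was the nearest for 34 of the 100, and 26 lay inside a myeloid gene. Of the replicate 1 distal peaks near the genes, 56.7% (102 of 180, exact binomial 95% interval 49.1 to 64.0%) overlapped a replicate 2 peak. The share over all distal peaks of replicate 1 was 56.8%. The interval covers counting error only. Of the replicate 2 distal peaks near the genes, 93.6% (103 of 110) overlapped a replicate 1 peak. The share over all distal peaks of replicate 2 was 88.1%.

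**Figure D2:**
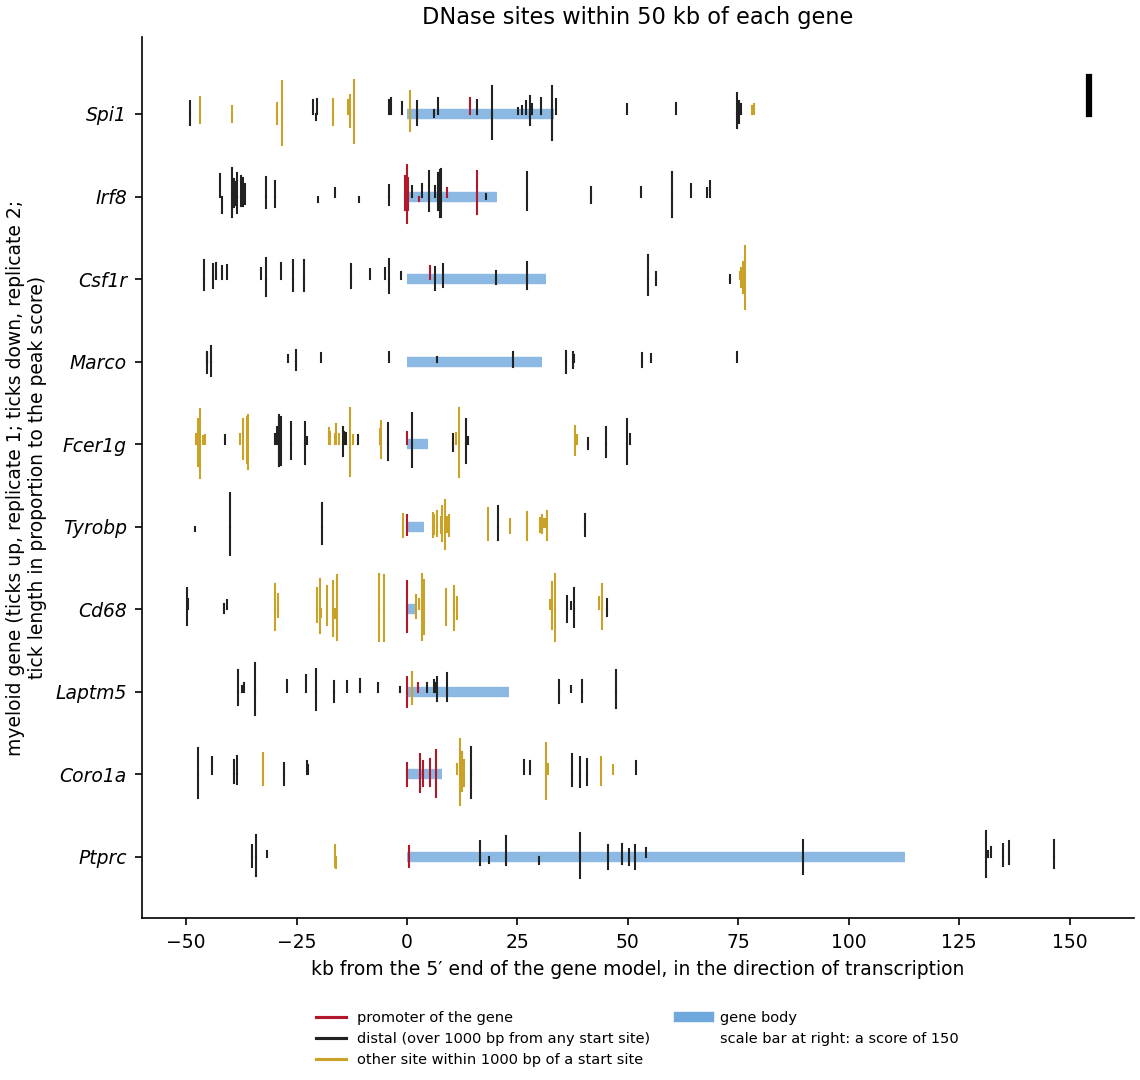
DNase sites within 50 kb of each of the 10 genes (rows), by distance in kb from the gene's 5′ end (x axis), with the gene body as a blue bar. Ticks up are replicate 1 and ticks down replicate 2, with lengths in proportion to the deposited score (bar at upper right, a score of 150). Promoter sites of the gene are red, distal sites black, and other sites within 1000 bp of a start site yellow. Irf8 shows a dense upstream group, and Cd68, Tyrobp and Fcer1g lie among many yellow sites.

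For most of these genes with a shared promoter peak, a distal site within 50 kb scored higher than the promoter. The promoter scored above the strongest shared distal site in both replicates in 2 of 6 genes, Irf8 and Cd68. Over all genes with both kinds of site the share was 60.6%, and within CpG deciles 2 to 4 it was 33.8% (887 of 2625). The myeloid count includes Irf8, which falls outside those deciles. Within them, Cd68 was the only one of the 5 myeloid genes with a shared promoter peak whose promoter scored above. The 13 shared promoter sites of the myeloid genes had median scores of 73 and 55, near the 70 and 46.5 of their 100 shared distal sites. Over the genome the medians were 95 and 71 for promoter sites and 63 and 43 for distal sites. The promoter medians were thus below those of the genome and the distal medians slightly above them, without a test of either difference. Of the 13 promoter sites, 5 were of Coro1a and 4 of Irf8, and the genome medians were not matched for CpG content.

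**Figure D3:**
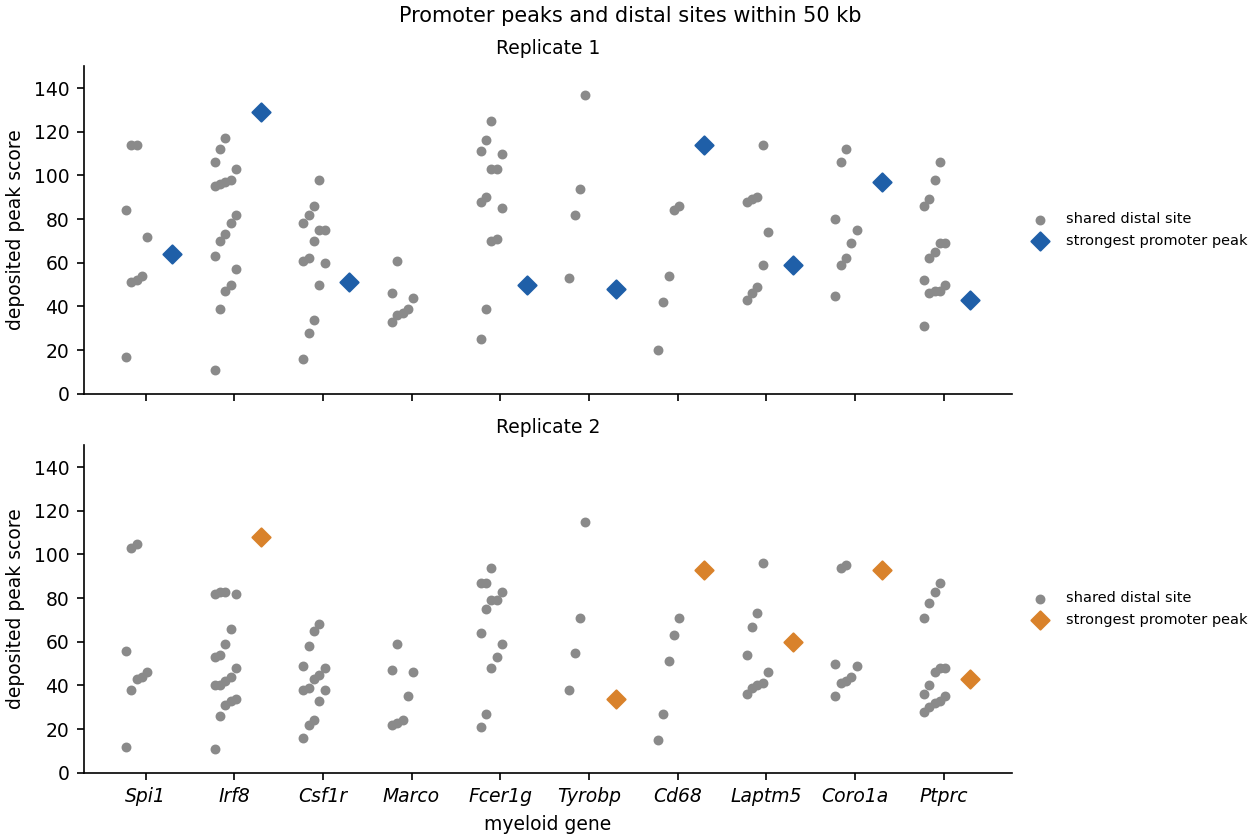
Deposited peak scores (y axis, no unit) of all shared distal sites within 50 kb (grey points) and of the strongest promoter peak (diamonds) of each myeloid gene (x axis), with replicate 1 above and replicate 2 below. The diamond is above every grey point only for Irf8 and Cd68. For Tyrobp it is below all of them in both replicates.

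Irf8 had 18 shared distal sites, and its promoter exceeded all of them. A group of 7 lay between 36.6 and 39.7 kb upstream, and the strongest of these scored 117 and 82. Its nearest start site was that of Gm33142, a different gene. Inside the gene, sites at 7.7 kb (112 and 83, intron 3) and 7.4 kb (106 and 82, an exon) were next in rank. Downstream, the site at 60.1 kb scored 98 and 83, and the site at 27.1 kb, shown above with its PU.1 motif, scored 97 and 54. Both had Irf8 as the nearest start site.

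The sites of Spi1 were strongest inside the gene. The site in intron 2 at 19.2 kb scored 114 and 103, and that at 32.9 kb, in an exon near the 3′ end, scored 114 and 105. The latter was nearest to a start site of Mybpc3, a heart muscle gene. A downstream site in Madd, at 74.8 kb, had 84 and 56. Of the 25 distal sites near Spi1, 8 were shared and 16 were found in replicate 1 only. Over all 226845 distal sites, 53.3% were shared and 90192 sites were found in replicate 1 only.

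Near Csf1r, 14 distal sites were shared, and 5 of these lay in the adjoining gene Pdgfrb, a receptor gene of pericytes and other mesenchymal cells. The strongest sites were at 54.6 kb in Hmgxb3 (98 and 65), at 32.0 kb upstream in Pdgfrb (86 and 68) and at 4.0 kb upstream between the genes (82 and 58). Csf1r is known for an intronic enhancer downstream of its macrophage start sites. Intron 1 of the longest transcript held shared sites at 6.4 kb (50 and 43) and 8.1 kb (60 and 33). Whether either is that enhancer was not tested.

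Marco had 7 shared distal sites, and their median scores of 39 and 35 were the lowest of the 10 genes. The strongest lay 44.4 kb upstream and scored 61 and 59. Next came sites at 35.9 kb (44 and 46) and 25.1 kb upstream (46 and 35). The sites with the PU.1 motif, in intron 12 and downstream of the gene, scored 39 and 22, and 37 and 24. Marco was the only gene of the 10 with 2 such sites.

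Fcer1g had its strongest distal site in intron 1, 1.2 kb from the 5′ end, with scores of 125 and 94, against a promoter peak of 50 in replicate 1 alone. Its sequence, shown above, held 2 matches to the C/EBP motif. The other strong sites lay 28.9 kb (116 and 87) and 29.1 kb (111 and 87) upstream, where B4galt3 had the nearest start site. Of its 13 shared distal sites, only the intronic one had Fcer1g as the nearest gene.

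Near Tyrobp, the site 40.1 kb upstream scored 137 and 115, the highest of all 100, with Lrfn3 as the nearest gene. The site 19.2 kb upstream scored 94 and 71, had Tyrobp as the nearest gene and held the PU.1 motif. A site at 20.7 kb scored 82 and 55. All 4 shared distal sites scored above the Tyrobp promoter in both replicates.

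Near Cd68, the sites more than 1000 bp from any start site scored below the promoter (114 and 93). They reached 86 and 71 at 37.7 kb, 84 and 63 at 49.9 kb upstream, and 54 and 51 at 36.2 kb. None of the 5 shared sites had Cd68 as the nearest gene, and 17 sites within 50 kb were promoter sites of other genes. A shared site 16.8 kb upstream, 812 bp from a start site of Tnfsf13os and so not counted as distal, scored 115 and 107, above the Cd68 promoter in both replicates. Laptm5 had stronger sites at a distance than at its promoter: 114 and 96 at 34.4 kb upstream, 90 and 73 at 20.7 kb upstream, and 89 and 67 at 47.2 kb. Of these, Laptm5 was the nearest gene for the site at 20.7 kb.

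Near Coro1a, the strongest distal sites lay at 14.4 kb in Slx1b (112 and 95), at 47.3 kb upstream (106 and 94) and at 37.4 kb in Sgf29 (80 and 49). Coro1a had the nearest start site for 0 of its 8 shared distal sites. Near Ptprc, a site at 131.0 kb, downstream of the gene, scored 106 and 83. A site in intron 2, at 39.1 kb, scored 98 and 87 and had Ptprc as the nearest gene. A site 34.2 kb upstream scored 89 and 78. In replicate 1, 13 of its 14 shared distal sites scored above the promoter, and in replicate 2 it was 7.

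Motifs were counted in the 150 bp around the centre of each site, on both strands. The PU.1 motif was in 5 of the 100 shared distal sites, near Ptprc, Irf8, Tyrobp and Marco, against 2.79% of all 120858 shared distal sites. Of these 5 sites, 4 had the myeloid gene as the nearest. The ETS core GGAAGT, which is part of the PU.1 motif, was in 21 of the 100, against 15.9%. RUNX (TGNGGT) was in 33, against 26.8%, and C/EBP (TTGCNNAA) in 15, against 12.1%. The AP-1 motif (TGANTCA) was in 7, against 10.3%, the GATA factor motif in 6, against 7.14%, and the motif of the lung epithelial factor NKX2-1 (CAAGTG) in 9, against 12.6%. With counts this small, each of these shares rests on a few sites.

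The IRF direct repeat and the ETS-IRF composite, each a pair of short motifs spaced by 2 bases, were in 0 of the 100 distal sites. They were in 2.23% and 1.90% of all distal sites, and a count of 0 in 100 allows a share of up to 3%. Among the 13 shared promoter sites, the PU.1 motif was in 2, at Tyrobp and at the internal start site of Coro1a shown above, against 2.13% of all shared promoter sites. The NKX2-1 motif was in 3 of 13, at promoter sites of Ptprc, Irf8 and Tyrobp, against 6.91%, unlike its lower share at the distal sites. RUNX was in 3 of 13, against 22.8%. The C/EBP, AP-1 and GATA factor motifs were each in 1 of 13, against 5.6%, 4.6% and 2.95%. The ETS core was in 4 of 13, against 16.0%, and the GC box (GGGCGG) in 3 of 13, against 40.0%. The CCAAT box was in 3 of 13, against 20.8%, with 2 matches in the Cd68 sequence and 1 in the Irf8 sequence shown above. The TATA box (TATAAA) was in 1 of 13, at Irf8, against 2.92%. The GATA factor motif searched was AGATAA. A match says only that these letters are present, and no match says nothing of a factor.

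Scores were mostly lower in replicate 2, and some promoters of these genes departed from that. Of the 13 shared promoter sites, 3 had a replicate 2 score at or above that of replicate 1, namely Ptprc (43 and 43), Laptm5 (59 and 60) and the 5′ end of Coro1a (46 and 48). The share among all shared promoter sites was 2.17%. Among genes whose strongest promoter peak scored at most 60 in replicate 1, the share was 9.01% (121 of 1343). Those with such a score among the myeloid genes were Ptprc, Laptm5 and Tyrobp, and 2 of these 3 were at or above. The other 4 promoter sites of Coro1a scored lower in replicate 2. The part of low scores in these values was not tested, and the scales of the lists may differ.

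**Figure D4:**
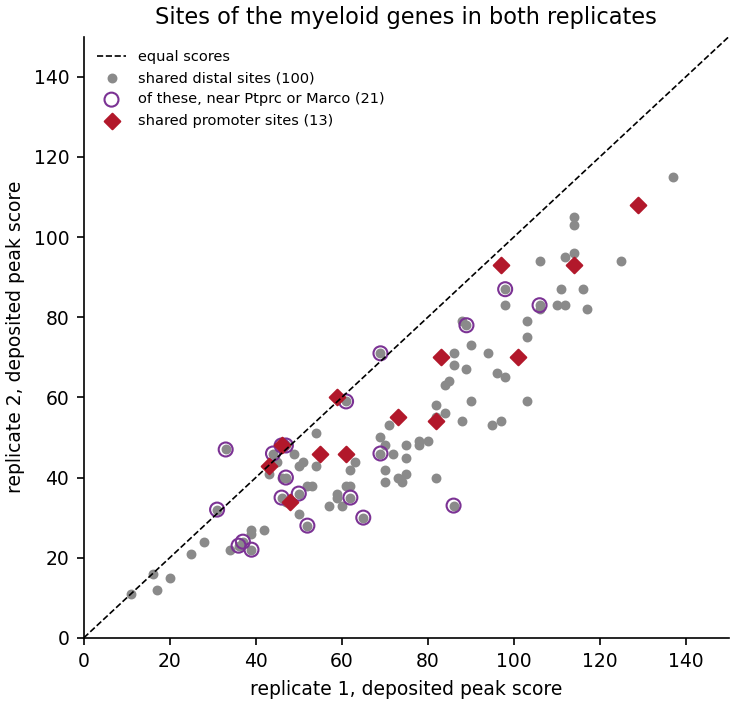
Deposited scores in replicate 1 (x axis) and replicate 2 (y axis) of the 100 shared distal sites (grey points) and 13 shared promoter sites (red diamonds) of the myeloid genes, with the 21 distal sites near Ptprc or Marco circled and the line of equal scores dashed. Most points lie below the line, and 6 of the 8 distal sites on or above it are circled.

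Among the distal sites, 8 of 100 were at or above equality, against 5.26% of all shared distal sites. They were 4 of 14 near Ptprc, 2 of 7 near Marco, 1 of 14 near Csf1r and 1 of 18 near Irf8. At Ptprc these were in the gene, at 45.4 kb (47 and 48), 50.2 kb (31 and 32, the site with the PU.1 motif), 51.7 kb (46 and 48) and 89.7 kb (69 and 71). At Marco they were at 35.9 kb (44 and 46) and 45.3 kb upstream (33 and 47). The median log2 ratio of replicate 1 to replicate 2 was 0.46 over the 100 sites and 0.47 over all shared distal sites, so most sites near these genes followed the whole list.

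Beyond the 10 genes, 40 of 70 other myeloid genes had a shared promoter peak, against a mean of 56.5% over their CpG deciles. Beside each count below stands the mean share of open genes over the CpG deciles of that list. Of the transcription factor genes 11 of 12 were open (91.2%), led by Runx1 (137 and 117), Cebpa (138 and 115) and Cebpb (132 and 109), while the granulocyte factor gene Cebpe had no peak. Of the surface receptor genes 12 of 21 were open (50.7%), led by Mertk (135 and 119), Csf2ra (115 and 101) and Tlr4 (105 and 82), while Ccr2 and Cx3cr1 had none. Of the intracellular signalling genes 8 of 12 were open (64.5%), among them the kinase gene Lyn (115 and 86) and the phosphatase gene Inpp5d (82 and 72). The ligand genes Csf1 (123 and 90), Il34 (71 and 49) and Csf2 (72 and 43) were all open (64.4%). The counts of factor and signalling genes were thus close to the share over their deciles. Several of the factor, receptor and ligand genes are also expressed outside the myeloid lineage.

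Few genes for lysosomal and secreted products of myeloid cells had a shared promoter peak. Lyz2 (61 and 33), which encodes lysozyme and is also expressed in alveolar type 2 cells, was the only one of 9 that did, against a mean of 39.4% over their CpG deciles. A further 5 had a peak in replicate 1 only, and C1qb and Chil3 had none. Over all protein-coding genes, 72.3% had a replicate 1 promoter peak and 68.5% had a shared one. Among granulocyte and mast cell genes 5 of 13 were open, close to the 36.3% over their deciles, led by Camp (98 and 68), S100a8 (73 and 63) and Prtn3 (56 and 40), and Cpa3 and Elane had no peak. At the 5′ end of the gene model 3 of the 13 had a shared peak, and Prtn3 was not among them.

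Markers of other cell types gave the setting. All 6 lung epithelial, all 5 endothelial and all 5 mesenchymal marker genes had a shared promoter peak, with median scores of 108.5 and 85.5, 86 and 54, and 118 and 96. The mean shares over their CpG deciles were 79.6%, 68.7% and 65.7%. For the 6 open myeloid genes the medians were 78 and 76.5. Shared promoter peaks were found for 3 of 8 macrophage and monocyte, 2 of 4 neutrophil, 2 of 6 erythroid and 6 of 15 lymphoid markers. Over the deciles of these lists the mean shares were 41.1%, 32.2%, 46.6% and 55.6%, so that the macrophage count lay near its background, and no difference between lists was tested. Of the lymphoid markers, Ebf1 (111 and 95), Lck (110 and 94) and Pax5 (96 and 84) led, and Cd4 was among those with no peak. The shared peaks of Lck and Pax5 lay at other annotated start sites, not at the 5′ end of the gene model.

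Of the 15 lymphoid markers, 6 had a promoter peak in replicate 1 and 10 in replicate 2, against 72.3% and 69.2% of all genes. The 4 with a promoter peak in replicate 2 only were Cd3e (31), Cd3g (53), Cd8a (37) and Rag1 (49), named here after their values were seen. For the 10 myeloid genes the numbers were 9 and 6. Of the 6 lymphoid markers with a shared promoter peak, 1 scored at or above equality in replicate 2, and 5 scored lower. No test of these counts was possible.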

How the data were processed

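DNase-seq peak and hotspot lists of 2 newborn lung libraries were used. The authors called both kinds of interval per library on mm10, per the labels and the notes deposited with the files; the callers and the depth are not given in the sources used here. Each deposited peak carried a score of unknown meaning, used to rank peaks within a list and, in a ratio and an at-or-above count read only beside those of all sites, to compare the lists, whose scales may differ, and each deposited hotspot a −log10 q-value. Chromosomes 1 to 19, X and Y were kept, with 276480 and 188498 peaks.

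Overlapping peaks of the 2 lists were merged. GENCODE M21 gave start sites, and GRCm38 gave sequence; 0 intervals ended past a chromosome end. CpG dinucleotides were counted within 500 bp of each gene's 5′ end, and genes were put in 10 deciles. Python 3.11.15 with pandas 2.3.3 and pysam 0.24.0 was used, and the overlap steps were tested on simulated data.

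The members and lists were chosen with earlier results of these data known. Named genes were the members, the 3 highest-ranked open genes of each list and up to 2 without a peak. Distal sites were named by mean rank, up to 3 per gene, with the PU.1 sites. Some genes that this rule names are left out of the text. Other sites and genes in the text were chosen after their values were seen. Of the 71 other myeloid genes, 70 matched a protein-coding model. Alternatives changed promoter reach, start sites, distance, overlap, score threshold, hotspots and replicates.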

Additional observations from a re-analysis of the deposited data

How the results depend on the processing

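The number of myeloid genes with a shared promoter peak ranged from 4 (peaks above the median score) to 7 (promoters of 1000 bp) when both replicates were required, and was 6 or 9 from 1 replicate alone. Spi1 was added at 1000 bp by a site near the 5′ end of its model, not near the start of its longest coding transcript. Lymphoid markers with a shared promoter peak numbered 3 when only the 5′ end of the gene model was used, and 6 to 10 from 1 replicate alone. The mean number of distal sites per gene was 4.3 within 20 kb, 3.4 for sites with the gene's start site nearest, 5.2 for peaks above the median score, and 10.7 to 17.5 from 1 replicate alone. The number of genes whose promoter exceeded their strongest distal site fell from 2 to 1 when distal meant over 500 bp from a start site, within 20 kb, and for sites with the gene's start site nearest. In the first of these, a site near Cd68 812 bp from a Tnfsf13os start site (115 and 107) counted as distal; in the last 2, Cd68 had no distal site left to compare. The median promoter score in replicate 1 was 80 with promoters of 1000 bp, against 59. No paired analysis was possible because the series has 1 group. Depth was not given, so a missing peak does not show closed chromatin.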
